A study of Mus musculus with 39 samples.

Results

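The Eph receptors are receptor tyrosine kinases and the ephrins are their ligands, which are themselves bound to the cell surface. Described here are 10 genes of this family in sorted mouse pancreatic tumour cells: the A-type receptors Epha1, Epha2 and Epha4, the B-type receptors Ephb2, Ephb3 and Ephb4, the A-type ephrins Efna1 and Efna5, and the B-type ephrins Efnb1 and Efnb2. They were taken by gene symbol from a table of 39017 genes, and all 10 were found. No cut on their values was used, but the choice was made with earlier results of these data known. The same table holds 12 other genes of the family, which makes 22 in all.

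An ephrin on one cell binds an Eph receptor on a neighbouring cell, and a signal can then run forward, through the kinase of the receptor, and in reverse, into the cell that carries the ephrin. A-type ephrins are held by a lipid anchor and mainly bind A-type receptors, whereas B-type ephrins cross the membrane and mainly bind B-type receptors, with Epha4 binding both. In epithelia the family keeps cell populations apart and shapes contacts between cells. Epha2 is often abundant in carcinoma cells, and in mouse pancreatic tumours it is known to act upstream of Ptgs2, which encodes cyclooxygenase-2, the enzyme that starts prostaglandin synthesis.

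RNA of the tumour cells was sequenced in 39 libraries from 20 clones, and each library title carries a clone name and a tumour number. Hosts were C57BL/6 mice that carried each clone as a subcutaneous implant for 3 weeks before the tumour cells were sorted, and no group was treated. Clones labelled T cell high gave 14 libraries from 6 clones, T cell intermediate clones gave 4 libraries from 2 clones, and T cell low clones gave 18 libraries from 9 clones. Another 3 clones, with 1 library each, had no label of T cell phenotype and entered no comparison between classes. The labels give the strain of the mice and no genotype of the tumour cells, and several clones come from the same parent tumour line. Whether libraries of 1 clone stem from different mice is not stated, so counts were summed per clone and the p-values measure the spread between these clone sums, except in the fits named below that take single libraries as replicates, whose p-values also rest on the spread between libraries of a clone.

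Library totals ran between 7638130 and 103794674 counts, with a median of 34565903. The libraries were of 2 kinds. In 19 of them the summed level of the heart muscle transcripts Myh6, Myh7, Myl2 and Mb lay between 152 and 4893 CPM (counts per 1000000 counts of the library), and in the other 20 it did not exceed 0.235 CPM. These kinds are called heart-bearing and heart-free. Of the heart-bearing libraries, 18 carry tumour number 1, against 1 of the heart-free libraries. Liver transcripts were present along with the heart transcripts: the sum of 6 liver markers was 481 to 15887 CPM in the heart-bearing libraries of the labelled classes and 0.0868 to 241 CPM in the heart-free ones. Each class held both kinds, with 6 of 14 T cell high libraries, 2 of 4 intermediate libraries and 9 of 18 T cell low libraries heart-bearing. The amount was not equal between classes. In heart-bearing libraries the heart sum had a median of 4656 CPM (2553 to 4872) in T cell high and 1954 CPM (152 to 4893) in T cell low. Comparisons that use all libraries therefore also set unequal amounts of heart transcripts side by side. Epithelial markers (Krt8, Krt18, Krt19, Krt7, Cdh1 and Epcam) summed to 5776 to 12598 CPM in heart-free T cell high libraries and 4495 to 9272 CPM in heart-free T cell low libraries, so epithelial transcripts were present in all of them. These markers do not tell tumour cells from other epithelium. Other cell types left transcripts in the heart-free libraries of both classes: leukocyte markers summed to 26.9 to 401 CPM in T cell high and 25.1 to 247 CPM in T cell low libraries, macrophage markers to 73.8 to 2590 and 48.7 to 1415 CPM, fibroblast markers to 97.9 to 17703 and 221 to 6183 CPM, and T cell markers to 0.321 to 8.06 and 0.154 to 4.75 CPM. Levels below are from heart-free libraries unless stated, which represent 17 clones: 6 high, 2 intermediate, 8 low and 1 without a class.

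Divided by exon length, the levels placed Epha2 first in the family, at 76.8 ± 18.1 CPM per kb of exon (SD, n = 17 clones). The ligands and the receptor that follow were Efna1 at 41.1 ± 23.1, Ephb4 at 38.9 ± 6.84, Efnb1 at 34.7 ± 10.7 and Efnb2 at 25.9 ± 5.88 CPM per kb. Epha4 followed at 6.64 ± 3.59, Efna5 at 4.17 ± 1.62, Ephb3 at 3.44 ± 1.76, Epha1 at 1.95 ± 2.65 and Ephb2 at 1.56 ± 1.85 CPM per kb. Some neighbours in this order stood apart and others did not: Epha2 was above Efna1 in 15 of 17 clones and Efnb2 was above Epha4 in 17 of 17, but Efna1 was above Ephb4 in only 8, Ephb4 above Efnb1 in 10, Efna5 above Ephb3 in 10 and Epha1 above Ephb2 in 9. Of the other 12 genes, Efna4, another A-type ephrin, reached 17.9 ± 6.04 CPM per kb. Ephb6, a receptor whose kinase domain is inactive, reached 5.47 ± 2.08 and Epha7 reached 1.70 ± 0.787 CPM per kb. Efna2, Efnb3 and Efna3 averaged between 0.380 and 0.943 CPM per kb, and Epha3, Ephb1, Epha5, Epha6, Epha8 and Epha10 averaged at most 0.0740 CPM per kb.

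**Figure D1:**
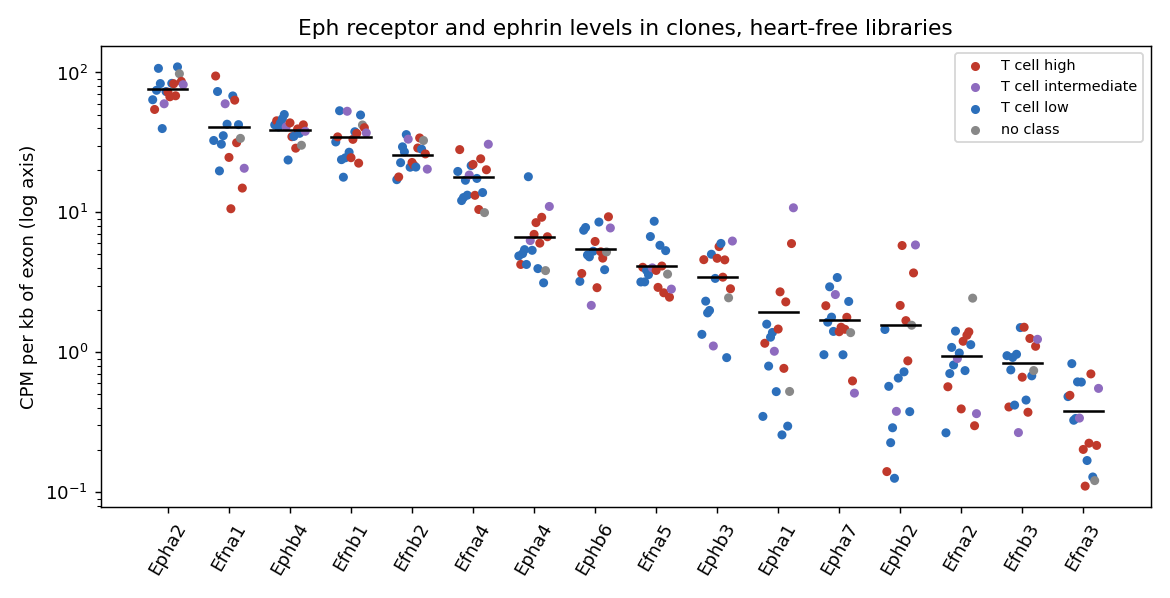
Levels of the 16 family genes with counts in every clone, as CPM per kb of exon on a log axis; each point is 1 of 17 clones summed over its heart-free libraries, coloured by T cell class, and the line is the mean. Epha2 leads at 76.8 CPM per kb, and the points of Epha1 and Ephb2 spread far more widely than those of Ephb4 or Efnb2.

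The clones differed most in 2 receptors. The clone with the highest level exceeded the clone with the lowest by 46.5-fold for Ephb2 and by 42.0-fold for Epha1, against 8.89-fold for Efna1, 6.81-fold for Ephb3 and 5.74-fold for Epha4. Efna5, Efnb1 and Epha2 spanned 3.49-fold, 2.99-fold and 2.76-fold. The narrowest ranges were those of Ephb4, at 2.11-fold, and Efnb2, at 2.10-fold. In the clone with most heart-free libraries, the T cell high clone yfp_2838c3 with 3, the libraries themselves spanned 4.97-fold for Ephb2, 3.16-fold for Epha1 and 2.54-fold for Efna1, and 1.29-fold to 2.39-fold for the other 7 members.

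By GENCODE on GRCm38, Epha2 and Ephb2 lie on chromosome 4 (chr4:141301240-141329384 and chr4:136647539-136835988), Epha1 on chromosome 6 (chr6:42358487-42373268), Epha4 on chromosome 1, Ephb3 on 16, Ephb4 on 5, Efna1 on 3, Efna5 on 17, Efnb1 on X and Efnb2 on 8. The sequences before the start sites of Epha2, Epha1 and Ephb2 are shown because the first is the most abundant member and the others are the members that varied most. They are the 250 bases upstream of the annotated start in RefSeq (build GRCm38.p6), written 5′ to 3′ on the strand of the gene. They lie at chr4:141300971-141301220 on the plus strand for Epha2, at chr6:42373269-42373518 on the minus strand for Epha1 and at chr4:136836013-136836262 on the minus strand for Ephb2. Capitals mark matches, on either strand, to the GC box GGGCGG or the E-box CAGGTG.
Epha2 promoter: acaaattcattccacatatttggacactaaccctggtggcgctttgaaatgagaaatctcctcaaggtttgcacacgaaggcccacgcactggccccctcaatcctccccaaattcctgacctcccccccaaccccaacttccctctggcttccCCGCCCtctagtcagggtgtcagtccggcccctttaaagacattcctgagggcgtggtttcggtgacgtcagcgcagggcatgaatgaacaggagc
Epha1 promoter: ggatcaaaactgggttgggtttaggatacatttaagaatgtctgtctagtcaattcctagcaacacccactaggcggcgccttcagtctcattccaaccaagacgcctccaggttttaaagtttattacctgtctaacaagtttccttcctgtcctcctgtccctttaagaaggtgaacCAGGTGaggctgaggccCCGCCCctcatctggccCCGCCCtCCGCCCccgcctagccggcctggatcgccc
Ephb2 promoter: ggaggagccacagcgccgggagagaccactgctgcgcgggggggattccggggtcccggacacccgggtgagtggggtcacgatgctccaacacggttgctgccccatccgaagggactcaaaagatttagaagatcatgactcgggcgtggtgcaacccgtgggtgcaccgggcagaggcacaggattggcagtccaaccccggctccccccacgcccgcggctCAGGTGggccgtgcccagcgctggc

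Epha1 held 3 GC boxes and 1 E-box, at 71 to 25 bases before the start, Epha2 held 1 GC box, and Ephb2 held 1 E-box and no GC box. The AP-1 motif TGANTCA, the TCF motif ATCAAAG and the TATA box TATAAA were searched on both strands as well and had no match in these 3 windows. Among 32851 RefSeq promoter windows of the same length, 32.7% held the GC box, 17.2% this E-box, 12.4% TATAAA, 6.75% TGANTCA and 3.21% ATCAAAG. G and C made up 55.6% of the window of Epha2, 54.4% of that of Epha1 and 68.4% of that of Ephb2.

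The main comparison of the series asks which genes of the tumour cells differ between T cell high and T cell low clones. None of the 10 members passed the test, with all libraries or with heart-free libraries alone. The members with the largest estimated differences were Ephb2 and Epha1, higher on average in the T cell high clones. Next in size were Ephb3, higher on average, and Efna5, lower on average, and the clones of the classes overlapped for each of these 4 genes. Epha2 differed by less than its error. The test was edgeR's quasi-likelihood test on clone sums, with Benjamini-Hochberg adjustment over all genes. It called 0 of 18529 genes with all libraries (0%) and 0 of 15614 genes with heart-free libraries (0%). At an unadjusted p under 0.05 it had 2175 genes with all libraries (11.7%), 2 of the members among them, and 2093 genes with heart-free libraries (13.4%), 3 of the members among them. DESeq2 called 123 genes when all libraries were used and 299 in the heart-free ones, and limma called 0 in both. With each library as a replicate and its tumour number as a replicate block, edgeR called 13 genes, 8 higher and 5 lower in T cell high clones, and none of the members. The median log2 difference of the 10 members was −0.05 in the fit of all libraries and −0.01 in that of heart-free libraries, beside −0.013 and −0.0024 for all genes tested.

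**Figure D2:**
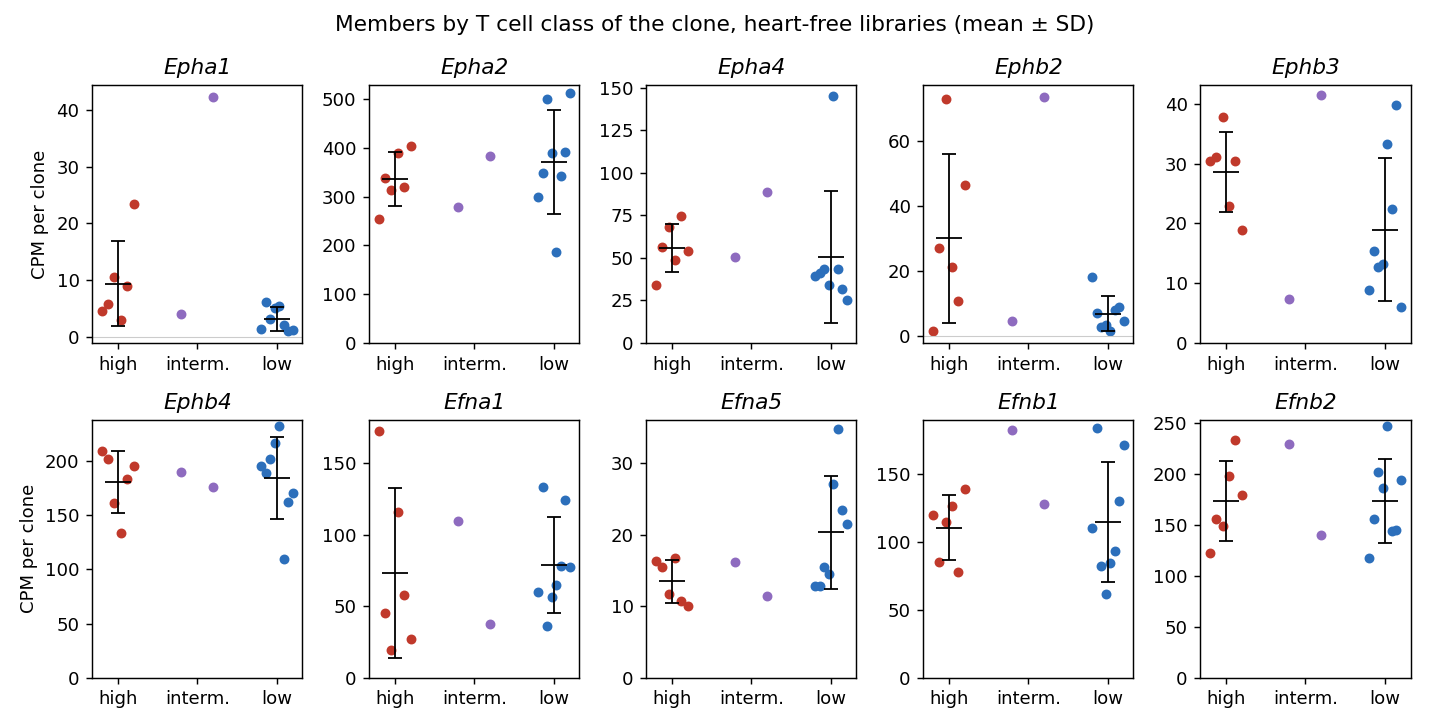
CPM of the 10 members in heart-free libraries; each point is a clone, placed by T cell class (6 high, 2 intermediate, 8 low), and bars give the mean ± SD for high and low. Classes overlap in every panel; Ephb2 and Epha1 have their higher means in T cell high clones, and 1 intermediate clone stands at the top of both.

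Ephb2, a B-type receptor known in the intestine as a target of Wnt signalling that positions cells along the crypt, spanned 1.77, 24.2 and 73.1 CPM (lowest, median and highest clone) in 6 T cell high clones. In 8 T cell low clones it spanned 1.58, 5.97 and 18.3 CPM. The groups overlapped: 5 of 6 high clones were at 10.9 CPM or more and 7 of 8 low clones at 9.14 CPM or less, while the high clone yfp_2838c3 had 1.77 CPM and the low clone yfp_2699c4 had 18.3 CPM. The log2 difference was 2.10 ± 0.65 (SE, edgeR adjusted p = 0.250). With all libraries it was 1.43 ± 0.44 (edgeR adjusted p = 0.332), and with heart-bearing libraries alone it was 0.65 (edgeR adjusted p = 0.470). DESeq2 called Ephb2 in the heart-free libraries, at a log2 difference of 2.09 and an adjusted p of 0.0422, as 1 of 299 genes it called there (1.91%). The highest clone, yfp_6555c3, rests on 1 heart-free library, which also had the highest endothelial sum, 254 CPM, and the highest fibroblast sum, 17703 CPM, among heart-free T cell high libraries. Without that clone the difference was 1.64 (edgeR adjusted p = 0.472), and with the endothelial level as a covariate it was 1.95 (edgeR adjusted p = 0.293).

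Epha1, an A-type receptor expressed mainly in epithelia, spanned 3.01, 7.38 and 23.5 CPM in T cell high clones and 1.01, 2.59 and 6.24 CPM in T cell low clones. The 3 highest high clones lay above every low clone, and the other 3 lay within the range of the low clones. The log2 difference was 1.55 ± 0.52 in heart-free libraries (edgeR adjusted p = 0.259) and 1.15 ± 0.39 with all libraries (edgeR adjusted p = 0.344). The part of the unequal heart sums of the classes in the difference with all libraries was not tested. Leaving out yfp_7160c2, the highest high clone, lowered the log2 difference to 1.04 in heart-free libraries (edgeR adjusted p = 0.437).

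Epha2, the A-type receptor with the highest level, spanned 254, 328 and 404 CPM in T cell high clones and 186, 369 and 512 CPM in T cell low clones. Every high clone lay within the range of the low clones. The log2 difference was −0.13 ± 0.20 in heart-free libraries (edgeR adjusted p = 0.808) and −0.09 ± 0.16 with all libraries (edgeR adjusted p = 0.822), and it was 0.07 in heart-bearing libraries alone. Ptgs2 averaged 40.0 ± 20.4 CPM in T cell high clones and 120 ± 63.0 CPM in T cell low clones (SD, n = 6 and 8), and its log2 difference was −1.57 ± 0.49 in heart-free libraries (edgeR adjusted p = 0.250) and −1.26 ± 0.21 with all libraries (edgeR adjusted p = 0.103).

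Epha4, the A-type receptor that also binds B-type ephrins, averaged 55.8 ± 14.2 CPM in T cell high clones and 50.4 ± 38.7 CPM in T cell low clones. The low mean rests on yfp_6421c2, which had 145 CPM, above every high clone, while the median was 55.0 CPM in high clones and 40.1 CPM in low clones. The log2 difference was 0.16 ± 0.34 (edgeR adjusted p = 0.873). Ephb3, a B-type receptor that acts with Ephb2 in the intestinal crypt, spanned 18.9, 30.4 and 37.8 CPM in T cell high clones and 6.08, 14.3 and 39.8 CPM in T cell low clones. Its lower values were all in low clones, 5 of which lay below every high clone, but the highest value was in a low clone too. The log2 difference of Ephb3 was 0.60 ± 0.36 (edgeR adjusted p = 0.466), and it was −0.12 in heart-bearing libraries alone. Ephb4, the B-type receptor best known as the venous partner of Efnb2 in blood vessels, averaged 181 ± 28.8 CPM in T cell high clones and 185 ± 37.9 CPM in T cell low clones, with a log2 difference of −0.03 ± 0.15 (edgeR adjusted p = 0.948) that turned to 0.10 in heart-bearing libraries alone. Ephb4 and Efnb2 are also made by endothelial cells, whose 10 markers summed to 11.2 to 254 CPM in heart-free T cell high libraries and 9.92 to 56.6 CPM in heart-free T cell low libraries. With the endothelial level as a covariate in heart-free libraries, the log2 difference was −0.0238 for Ephb4 and 0.035 for Efnb2 (edgeR adjusted p = 0.966 and 0.950). In bulk libraries fewer cells of a type and less RNA per cell cannot be told apart.

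Among the ligands, Efna5, an A-type ephrin, was the member with the largest negative difference. It spanned 9.98, 13.6 and 16.7 CPM in T cell high clones and 12.8, 18.5 and 34.8 CPM in T cell low clones. The 3 lowest values were in high clones and the 4 highest in low clones, with the rest overlapping. The log2 difference was −0.57 ± 0.25 in heart-free libraries (edgeR adjusted p = 0.356) and −0.45 ± 0.22 with all libraries (edgeR adjusted p = 0.441). Without yfp_6499c3, the low clone at 34.8 CPM, the difference with all libraries was −0.28 (edgeR adjusted p = 0.520).

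Efna1, the A-type ephrin that is the usual partner of Epha2, averaged 73.0 ± 59.6 CPM in T cell high clones and 78.8 ± 33.8 CPM in T cell low clones, and both the lowest and the highest value, 19.4 and 173 CPM, were in high clones. Its log2 difference was −0.10 ± 0.46 (edgeR adjusted p = 0.944). Efnb1 averaged 110 ± 24.2 CPM in T cell high clones and 115 ± 43.9 CPM in T cell low clones, and Efnb2, which also marks arterial endothelium, averaged 173 ± 39.2 CPM in T cell high clones and 174 ± 41.2 CPM in T cell low clones. Both had their high clones within the range of the low clones. The log2 difference was −0.06 ± 0.26 for Efnb1 and 0.00 ± 0.18 for Efnb2, both in heart-free libraries (edgeR adjusted p = 0.941 and 0.996).

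**Figure D3:**
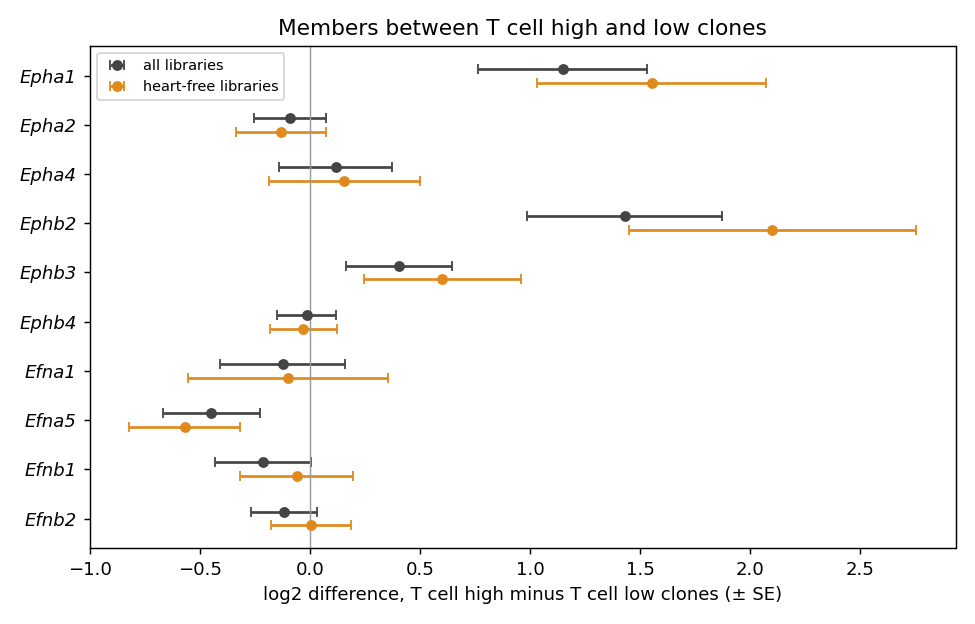
Log2 difference of each member, T cell high minus T cell low clones, with its standard error, for all libraries (6 and 9 clones) and for heart-free libraries (6 and 8 clones). Ephb2 at 1.43 and 2.10 and Epha1 at 1.15 and 1.55 lie farthest to the right and Efna5 at −0.45 and −0.57 farthest to the left; no member passed the adjusted threshold of 0.05 by edgeR.

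None of the other family genes and none of the genes of the signalling lists passed this test in either set of libraries. Of the 12 other family genes, 8 were tested in the full set of libraries and 7 in the heart-free set, and 0 had an unadjusted p under 0.05. Forward signalling was covered by 26 genes, all tested, of which 1 had an unadjusted p under 0.05 in each set of libraries; its most abundant genes were the GTPase Rhoa, at a log2 difference of −0.02 ± 0.18, the phosphatase Ptpn11, at −0.24 ± 0.11, and the kinase Src, at 0.03 ± 0.12, in heart-free libraries. Reverse signalling was covered by 8 genes, of which 7 were tested in heart-free libraries and 2 had an unadjusted p under 0.05. Its most abundant genes were the PDZ-domain adaptor Sdcbp, at 0.39 ± 0.18, the adaptor Nck2, at 0.09 ± 0.21, and the polarity protein Pard6b, at −0.38 ± 0.42. The 7 proteases and phosphatases that act on the family had 0 with an unadjusted p under 0.05, and their most abundant genes were Mmp14, at 0.27 ± 0.25, Adam10, which sheds ephrins, at 0.09 ± 0.14, and Ptpn1, at −0.16 ± 0.16. The 10 genes of TGF-beta and prostaglandin signalling had 1 such gene in heart-free libraries and 2 with all libraries, Ptgs2 among them, and their most abundant genes were Smad3, at 0.31 ± 0.30, Smad4, at −0.15 ± 0.13, and the receptor Tgfbr2, at 0.29 ± 0.22.

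The 2 intermediate clones lay far apart in 3 receptors. Clone yfp_7160c5 had 42.4 CPM of Epha1, 73.8 CPM of Ephb2 and 41.4 CPM of Ephb3, each the highest of the 17 clones, whereas clone yfp_6422c5 had 3.99, 4.77 and 7.36 CPM of these genes. The T cell high clone yfp_7160c2, from the same parent line as yfp_7160c5, had 23.5, 46.5 and 18.9 CPM of them. Each intermediate clone rests on 1 heart-free library, with macrophage sums of 3399 CPM in yfp_7160c5 and 34.3 CPM in yfp_6422c5. Epha2 was at 383 CPM in yfp_7160c5 and 279 CPM in yfp_6422c5. Efna1 and Efnb1 ran the other way, with 37.8 and 128 CPM in yfp_7160c5 and 109 and 182 CPM in yfp_6422c5. In 1 fit of the 17 clones with a class, with all their libraries, edgeR called 1 of 20003 genes between intermediate and low clones (0.005%), the histocompatibility gene H2-M2, which is named because it was the only call, and 1008 genes had an unadjusted p under 0.05. Between intermediate and high clones it called 0 genes (0%), with 413 at an unadjusted p under 0.05. None of the members was called in either. Relative to low clones the log2 difference was 1.78 ± 0.56 for Epha1 (edgeR adjusted p = 0.601) and 1.97 ± 0.66 for Ephb2 (edgeR adjusted p = 0.665). Relative to high clones it was 0.64 ± 0.64 for Epha1 and 0.56 ± 0.76 for Ephb2. Without yfp_7160c5 the difference of Ephb2 turned to −0.33 relative to low clones and −1.73 relative to high clones, and that of Epha1 turned to −0.94 relative to high clones.

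The parent line of yfp_6499c4 and yfp_6499c3 and that of yfp_6556c4 and yfp_6556c3 each gave a T cell high and a T cell low clone, which allows a comparison within lines over libraries. Epha1 had 5.76 and 3.01 CPM in the heart-free libraries of the high clones yfp_6499c4 and yfp_6556c4, against 2.06 and 1.01 CPM in those of the low clones yfp_6499c3 and yfp_6556c3. Ephb2 had 27.3 and 21.2 CPM in the high clones, against 8.25 and 9.14 CPM in the low clones. Both genes were higher in the high clone of each line. The heart-bearing libraries of these clones were unequal, with heart sums of 4718 and 4748 CPM in the high clones yfp_6499c4 and yfp_6556c4 and 152 and 568.3 CPM in the low clones yfp_6499c3 and yfp_6556c3. In them Epha1 was at 19.7 and 20.3 CPM in the high clones and 1.84 and 3.53 CPM in the low clones. With single libraries as replicates, the line as a block and both kinds of library, the log2 difference was 2.49 ± 0.70 for Epha1 (edgeR adjusted p = 0.463) and 1.16 ± 0.38 for Ephb2 (edgeR adjusted p = 0.475). With heart-free libraries alone it was 1.64 for Epha1 (edgeR adjusted p = 0.809) and 1.58 for Ephb2 (edgeR adjusted p = 0.595). In the fit with both kinds of library, the log2 difference was −0.68 ± 0.29 for Efna5 (edgeR adjusted p = 0.555), 0.46 ± 0.21 for Epha4 (edgeR adjusted p = 0.560) and 0.10 ± 0.20 for Epha2 (edgeR adjusted p = 0.891). That fit with both kinds called 0 of 16857 genes (0%) and had 1511 at an unadjusted p under 0.05. It shares its libraries with the comparison of all clones.

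In the 15 clones with both kinds, 7 of 10 members differed between heart-bearing and heart-free libraries of the same clone: Epha1 was higher in heart-bearing libraries, and Epha2, Epha4, Ephb3, Ephb4, Efnb1 and Efnb2 were lower. In the same fit edgeR called 11224 of 19397 genes (57.9%), 5950 higher and 5274 lower, so a call is common here. Epha1 averaged 15.3 ± 8.28 CPM in heart-bearing libraries and 8.34 ± 10.9 CPM in heart-free ones (SD, n = 15 clones), was higher in heart-bearing libraries in 13 of 15 clones, and had a log2 difference of 1.23 ± 0.25 (edgeR adjusted p = 0.00047). Efnb1 averaged 75.4 ± 21.3 CPM in heart-bearing libraries and 121 ± 37.5 CPM in heart-free ones and was lower in heart-bearing libraries in 14 of 15 clones, with a log2 difference of −0.76 ± 0.10 (edgeR adjusted p = 7.0e-06). Efnb2 was lower in 14 of 15 clones as well, at −0.61 ± 0.10, and so was Ephb4, at −0.39 ± 0.07. Ephb3 fell by 0.73 on the log2 scale, Epha4 by 0.44 and Epha2 by 0.27. Ephb2, at −0.11 ± 0.33, Efna1, at 0.30 ± 0.21, and Efna5, at −0.15 ± 0.10, did not pass the test. Of the other family genes, 2 were higher in heart-bearing libraries, Epha3 by 3.60 ± 0.41 and Ephb1 by 2.48 ± 0.54 on the log2 scale. Epha7, Ephb6, Efna2, Efna4 and Efnb3 were lower, by 0.58 to 0.97, and Efna3 did not pass the test at 0.28 ± 0.25.

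**Figure D4:**
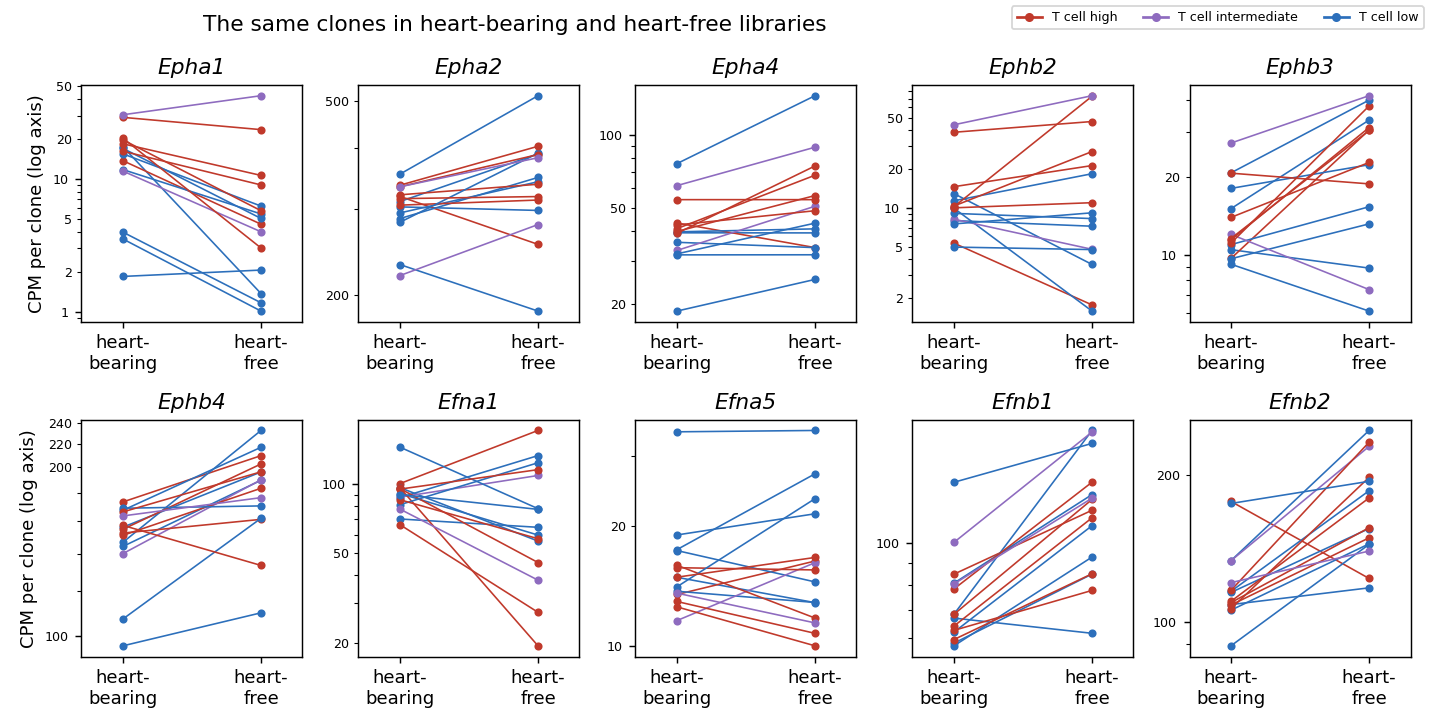
CPM of each member (log axes) in the heart-bearing and the heart-free libraries of the same 15 clones; a line joins the values of a clone and its colour gives the T cell class. For most members the heart-bearing points lie closer together than the heart-free points, and Epha1 is higher in heart-bearing libraries in 13 of 15 clones.

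Clones were also closer together in heart-bearing libraries. All 10 members had a larger SD of log2 CPM between clones in heart-free libraries than in heart-bearing ones, which was also so for 91.3% of 10869 genes that averaged 5 CPM or more in both kinds. Ephb2 had an SD of 0.87 in heart-bearing libraries and 1.74 in heart-free libraries, and Efna1 had 0.26 and 0.88. In 6 heart-bearing libraries with a heart sum of at least 4500 CPM, a limit set after the values were seen, Epha1 lay between 16.2 and 20.3 CPM and Ephb2 between 9.99 and 14.6 CPM, although they come from 4 T cell high and 2 T cell low clones. The 7 heart-free libraries of these clones spanned 1.32 to 10.6 CPM of Epha1 and 3.64 to 73.1 CPM of Ephb2. The heart-bearing library with the lowest heart sum, 152 CPM, from yfp_6499c3, had 1.84 CPM of Epha1 and 34.6 CPM of Efna5, beside 2.06 and 34.8 CPM in the heart-free library of that clone. The part of the heart and liver transcripts, of tumour number and of depth in these differences was not tested. Tumour number 1 and the heart-bearing kind part only in yfp_2699c4_no2, heart-bearing with number 2, and yfp_7062c3_no1, heart-free with number 1. These libraries had 20.1 and 2.06 CPM of Epha1 and 10.1 and 19.7 CPM of Ephb2. With 1 library of each sort, number and kind cannot be told apart by a test.

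Since Epha2 is known to act upstream of Ptgs2, each member was correlated with Ptgs2 over the 17 clones in heart-free libraries, on log2 CPM. Pearson's r of Epha2 was 0.48 (permutation p = 0.0478, adjusted over 10 correlations 0.120) and Spearman's rho was 0.32 (permutation p = 0.206). Over 20 clones with all libraries of a clone summed, which mixes the kinds of library, Epha2 did pass by r, at r = 0.62 (permutation p = 0.00319, adjusted 0.0106) with rho = 0.57 (adjusted 0.0511). This was not particular to Epha2: Efnb1 and Efnb2 passed there too, at r = 0.64 and 0.54 (adjusted permutation p = 0.0106 and 0.0367), as did Epha1 with a negative r. Without the 2 clones farthest from the median of Epha2, r over the heart-free clones was 0.33. Within the 6 T cell high clones r was 0.05 and within the 8 T cell low clones 0.65 (permutation p = 0.932 and 0.0965). In heart-free libraries Ephb3 and Epha1 passed the adjusted threshold, both with negative values. For Ephb3, r was −0.67 (permutation p = 0.00353, adjusted 0.0353) and rho was −0.71 (adjusted 0.0197); without the 2 farthest clones r was −0.65 (adjusted permutation p = 0.0996), and within classes it was 0.51 in high clones and −0.74 in low clones, neither passing. Over the 20 clones with all libraries r of Ephb3 was −0.35 (adjusted permutation p = 0.219). For Epha1, r was −0.62 (permutation p = 0.00800, adjusted 0.0400) and rho was −0.53 (adjusted 0.149). Without the 2 farthest clones, yfp_7160c5 and yfp_7160c2 of the same parent line, r was −0.32, so in heart-free libraries this relation rests on those clones. Over the 20 clones with all libraries r of Epha1 was −0.68 (adjusted permutation p = 0.0100) and rho was −0.63 (adjusted 0.0360). Within classes r of Epha1 was −0.69 in high clones and 0.01 in low clones. Clones share parent lines, and Ptgs2 itself had a lower mean in T cell high clones.

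**Figure D5:**
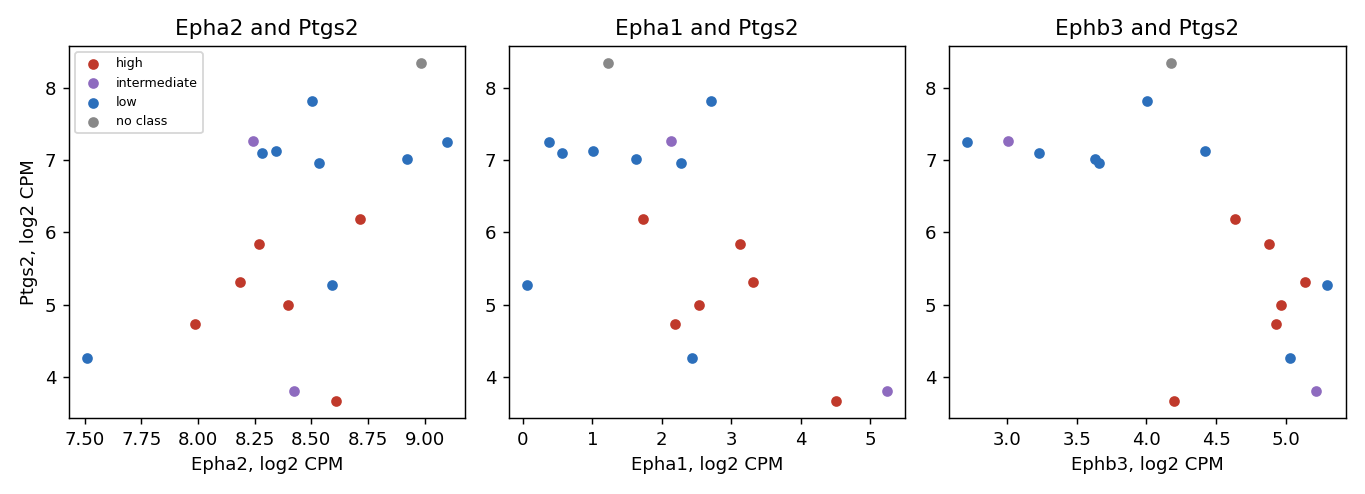
Log2 CPM of Ptgs2 against that of Epha2, Epha1 and Ephb3; each point is 1 of 17 clones in heart-free libraries, coloured by T cell class. The points of Ephb3 fall from left to right (r = −0.67), those of Epha1 do so with 2 clones far to the right (r = −0.62), and those of Epha2 scatter (r = 0.48).

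Genes whose level followed a member most closely over the same 17 clones were listed for Epha2, Epha1 and Efna5 among 10530 genes, as a description without a test. For Epha1 they were Tmc4 (r = 0.90), Fam46b (r = 0.89) and Epcam (r = 0.89), the last a surface marker of epithelial cells. For Epha2 they were Med18 (r = 0.88), Spn (r = 0.84) and Zdhhc18 (r = 0.83), and for Efna5 they were Taf2 (r = 0.86), Skp2 (r = 0.84) and Exosc8 (r = 0.84).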

How the data were processed

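The authors deposited 1 table of raw read counts per gene (unit: counts) for all 39 libraries. Per the submitters' processing notes, STAR, featureCounts and the mm10 genome were used; versions, annotation and strand setting were not given in these sources. Per the labels' protocols, total RNA went through an NEB library kit and an Illumina NextSeq.

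CPM are counts per 1000000 counts of the library total. Coordinates and exon lengths come from GENCODE on GRCm38. Libraries were grouped by the label of T cell phenotype, and counts were summed per clone. Differences between groups were tested with edgeR 4.0.16 (TMM, filterByExpr, quasi-likelihood F test, adjusted p under 0.05), with DESeq2 1.42.0 and limma 3.58.1 (prior count 2) as alternatives, in R 4.3.3 and Python 3.11.15. The SE of an edgeR log2 difference is the size of its unshrunk estimate divided by the square root of F, whereas the printed difference is the shrunk estimate. Correlations over 15 or more clones used 100000 permutations, and those within the 6 T cell high or the 8 T cell low clones used every permutation. On simulated counts with 200 changed genes, the heart-free comparison recovered 55% of log2 differences of 1 and 91% of those of 2 among 15430 genes, with 2.67% false calls. The changed genes all had a mean of at least 5 CPM, and genes were drawn independently of each other. These rates are averages over such genes and need not hold for a single member. The table holds 2 identifiers for Efna5, of which 1 has no counts.

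The members and gene lists were chosen with earlier results of these data known. All members are named, then Ptgs2, the other family genes, the 3 most abundant genes of each list in which none passed, and the 3 genes most alike to 3 members. Tumour numbers recur across clones. The mean deviations of T cell high and low libraries of a number from their class means correlated across 11635 genes. The values were 0.945, 0.846, 0.585 and 0.342 for numbers 1 to 4, and the number was also fitted as a replicate block. Because 18 of the 19 heart-bearing libraries carry number 1, these correlations cannot tell tumour number from the kind of library. Numbers 3 and 4 of the T cell high class come from yfp_2838c3 alone.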

Additional observations from a re-analysis of the deposited data

Results flagged for a closer look

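Clones were compared with the others of their class by the gap to the nearest value over the whole range, in 40 tests of a member in a class. By the limits used, chance marks about 1 in 20 independent tests. Here the tests used CPM without logs and took the same clones with all libraries and with heart-free libraries, so that rate is only approximate. The marked values were these. Among T cell high clones, Epha1 of yfp_7160c2 stood above the rest, at 23.5 CPM in heart-free libraries and 26.9 CPM with all libraries. Among T cell low clones, Epha4 of yfp_6421c2 stood above the rest, at 145 CPM in heart-free libraries and 111 CPM with all libraries, and Ephb2 of yfp_2699c4 did so at 18.3 and 16.1 CPM. Efna5 of yfp_6499c3 did so with all libraries, at 34.6 CPM.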

How the results depend on the processing

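For the comparison of T cell high with low clones, edgeR's count of 0 genes became 123 with DESeq2 and 0 to 16 with 1 clone left out; the 16 came without yfp_2838c3, and Ptgs2 alone was called without yfp_6421c2. With single libraries in place of clone sums as replicates it became 165 when the kind of library was also a block and 13 when the tumour number was also a replicate block, so that 2 choices changed together in each. In heart-free libraries it became 299 with DESeq2, 1 of them a member (Ephb2), and 0 to 37 with 1 clone left out, the 37 without yfp_2838c3 and the 1 without yfp_6694c2 being Tmod1, named for being the only call. The count of 1 between intermediate and low clones became 0 in heart-free libraries and 0 to 99 with 1 intermediate clone left out. The count of 2 members correlated with Ptgs2 became 4 over 20 clones with all libraries (Epha1, Epha2, Efnb1 and Efnb2, with Ephb3 lost) and 0 within T cell high clones, within T cell low clones or without the 2 farthest clones. The fit with the tumour-number block changed no call of a member. The cause was not tested in any of these.

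Of 664 recomputed member differences, 622 kept their direction and their side of the threshold, 1 passed it and 41 changed sign. With all libraries, Ephb4 turned to 0.0051 with limma, 0.10 in heart-bearing libraries, 0.0389 with single libraries and a block on kind and 0.0682 with single libraries and the replicate block, and ranged over −0.0843 to 0.0171 with 1 clone left out; Epha2 turned to 0.0723 and Ephb3 to −0.12 in heart-bearing libraries; Efna1 turned to 0.10 and 0.0764 in the same fits of single libraries. In heart-free libraries, Efnb1 turned to 0.0111 with limma and Efnb2 to −0.0068 with DESeq2 or its size factors and −0.013 without a filter. With 1 clone left out, the ranges there were −0.12 to 0.0273 for Ephb4, −0.53 to 0.0973 for Efna1, −0.16 to 0.0919 for Efnb1 and −0.0852 to 0.097 for Efnb2. With 1 intermediate clone left out, so that the other is assumed to vary like the remaining classes, Ephb2 ranged over −0.33 to 2.82 relative to low clones and −1.73 to 1.41 relative to high clones, and Epha1 over −0.94 to 1.38 and Epha2 over −0.15 to 0.11 relative to high clones. Epha2 ranged over −0.032 to 0.20 within parent lines with 1 library left out, and Ephb2 over −0.28 to 0.0271 between kinds of library with 1 clone left out.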

Other observations

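The 3 libraries without a label of T cell phenotype come from clones yfp_6883c1, yfp_6883c4 and yfp_7062c3, and only the last is heart-free. Epha2 was at 271, 306 and 458 CPM in them. Epha1 was at 7.94, 14.5 and 2.06 CPM, and Ephb2 at 11.2, 8.09 and 19.7 CPM. The ligand Efna1 was at 47.4, 91.3 and 61.9 CPM, and Efnb1 at 37.7, 69.9 and 145 CPM. Ptgs2 reached 295 CPM in yfp_7062c3, the highest of the 17 heart-free clones.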
